A study of Mus musculus with 4 samples.

Results

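The 10 genes described here are Dazl, Mael, Sycp1, Sycp2, Sycp3, Tdrd1, Tdrd12, Mov10l1, Asz1 and Stk31, which act in germ cells in meiosis or in the defence of the genome against transposons and are known to be silenced by DNA methylation elsewhere. Members were taken by symbol, as every probe set of the array whose platform annotation names 1 of these genes and no other. All 10 genes were found, on 13 of the 34945 probe sets with a single symbol, out of 18193 genes. Asz1, Dazl and Stk31 had more than 1 probe set, and each gene is represented below by its brightest unless the dimmer is named.

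The cells were CGR8, an established embryonic stem (ES) cell line from mouse, kept on gelatin, and their RNA was hybridised to Affymetrix arrays. All cells had the same medium with serum replacement. In 1 group, of 2 arrays, it held leukemia inhibitory factor (LIF), the cytokine that keeps ES cells undifferentiated, at 1000 U/ml, and in the other, also of 2 arrays, the cells were kept without LIF for 2 days. The labels number the arrays of each group 1 and 2 and do not say whether they came from separate cultures, so the p-values reflect no more than array-to-array spread, part or all of which could be technical. The comparison addresses which transcripts depend on LIF signalling.

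In the mammalian germ line, piRNAs are small RNAs that guide PIWI proteins to transposon transcripts, and tudor-domain proteins, helicases and scaffold proteins at germ granules assist in making and using them. The synaptonemal complex is the protein structure that holds paired chromosomes together in meiosis. In ES cells and somatic cells many of these genes are kept low by promoter methylation, which Dnmt3a and Dnmt3b establish and Dnmt1 maintains, and by PRC1.6, a Polycomb complex that binds DNA through E2f6 and through Mga with Max. Max and its partners recognise the E-box, CACGTG.

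Windows of 250 bases before the annotated transcription starts were read from RefSeq, assembly GRCm38.p6, which held 14 such windows for the 10 genes. The letters CACGTG stood in a window of 6 of the 10 genes, Sycp1, Sycp3, Mael, Mov10l1, Tdrd1 and Stk31, against 6.86% of 27018 genes with a window. Of the lists described below, other piRNA pathway genes held them in 38.5% of 13, and other meiotic genes in 22.7% of 22. The share was 25% of 12 for the methylation machinery, 9.09% of 11 for PRC1.6 and 0% of 6 for primordial germ cell markers. Among windows with a CpG ratio (observed over expected) of at least 0.6 the E-box stood in a window of 6 of 8 members and of 10.2% of 9852 genes. The core of the E2F site, TCCCGC on either strand, stood in windows of 2 genes, Mael and Sycp3, where 18.8% of all genes had it, and both of these also held an E-box, as 1.98% of all genes did. Among windows with a CpG ratio of at least 0.6, 2 of 8 members held the E2F core, a lower share than the 39.3% of all genes. Both motifs were held there by 2 of 8 members and 4.21% of all genes. The windows of the 2 Stk31 starts overlap and hold the same E-box, as do 2 of the 3 Tdrd1 windows, and no E-box shared bases with an E2F core. Asz1, Dazl, Sycp2 and Tdrd12 held neither run of letters in these windows. A match describes letters and shows no binding, and binding was not measured here. The following 4 windows, written 5′ to 3′ along the gene with the motifs in capitals, show the 2 members with both motifs (Sycp3 and Mael), the member with the largest difference between groups and no motif (Sycp2), and a member that read lower without LIF and has an E-box (Stk31).
Sycp3, chr10:88459337-88459586, plus strand: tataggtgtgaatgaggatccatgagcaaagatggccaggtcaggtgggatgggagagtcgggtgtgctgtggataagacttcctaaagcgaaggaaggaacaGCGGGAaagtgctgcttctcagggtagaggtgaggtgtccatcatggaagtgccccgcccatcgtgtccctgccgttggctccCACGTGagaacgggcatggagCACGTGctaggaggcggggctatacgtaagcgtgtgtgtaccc
Mael, chr1:166238745-166238994, minus strand: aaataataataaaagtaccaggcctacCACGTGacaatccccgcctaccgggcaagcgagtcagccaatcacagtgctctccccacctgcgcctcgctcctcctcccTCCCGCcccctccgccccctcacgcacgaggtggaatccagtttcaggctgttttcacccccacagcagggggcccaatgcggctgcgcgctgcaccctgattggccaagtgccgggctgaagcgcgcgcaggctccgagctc
Sycp2, chr2:178407659-178407908, minus strand: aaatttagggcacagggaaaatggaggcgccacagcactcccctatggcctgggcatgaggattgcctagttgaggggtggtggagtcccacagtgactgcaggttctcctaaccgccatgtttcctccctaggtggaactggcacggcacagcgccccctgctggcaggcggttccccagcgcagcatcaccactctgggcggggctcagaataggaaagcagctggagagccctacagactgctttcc
Stk31, chr6:49395289-49395538, plus strand: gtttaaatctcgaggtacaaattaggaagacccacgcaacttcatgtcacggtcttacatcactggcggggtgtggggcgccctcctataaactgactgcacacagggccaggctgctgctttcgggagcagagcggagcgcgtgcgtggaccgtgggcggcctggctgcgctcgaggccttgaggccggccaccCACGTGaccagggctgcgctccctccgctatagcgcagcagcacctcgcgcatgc
The E-boxes of Sycp3 begin 64 and 43 bases before the start and its E2F core, on the opposite strand, 147 bases before. In Mael the E-box begins 223 bases and the E2F core 143 bases before the start, and in Stk31 the E-box begins 55 bases before. The Sycp2 window holds 7 CpG dinucleotides, against 12 in that of Sycp3, 18 in that of Mael and 21 in that of Stk31, while the median over all windows was 6 and over the member windows 16.

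**Figure D1:**
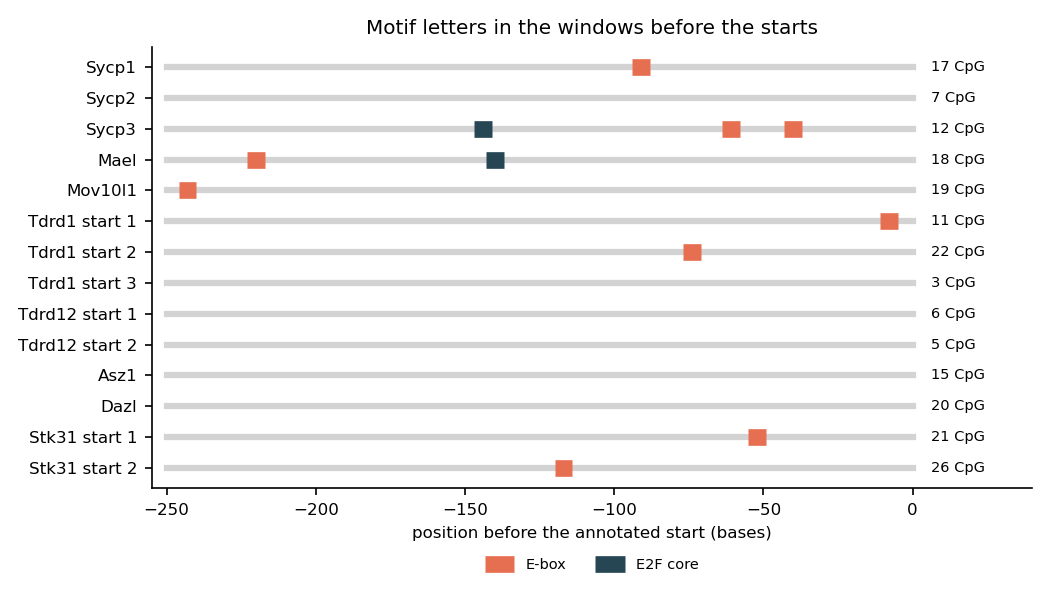
Positions of the E-box and the E2F core in the 14 member windows, plotted as bases before the annotated start, with the number of CpG dinucleotides of each window at the right. E-boxes stand in windows of 6 genes, at different distances from the start, and E2F cores in those of Mael and Sycp3. The marks of both Stk31 starts are 1 site, and so are those of Tdrd1.

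Values below are MAS5 signals, a measure of brightness that can be compared between arrays for a given probe set and not between probe sets. Log2 changes are the mean without LIF minus the mean with LIF, SE stands for limma's moderated standard error, and adjusted p-values are Benjamini-Hochberg values over the 14445 genes whose mean log2 signal exceeded 4.51, a signal of 22.9. Of the 10 members 9 passed that filter and Tdrd1 did not. Most were not near the floor in these cells. By mean log2 signal Dazl lay at percentile 95.4 of the probe sets, Mael at 89.4 and Sycp3 at 87.3. Sycp2, the lowest of the 9, lay at 55.2 and Tdrd1 at 6.69, although such ranks also depend on the probe set. Array medians were 59.6 to 95.5. On arrays numbered 1 the 18S ribosomal RNA control gave 462 (LIF) and 451 (no LIF), against 5150.4 and 2990.4 on arrays numbered 2, a split that was noticed in these values and not taken from the labels, so changes within each number are given too. In bulk RNA, fewer expressing cells and less RNA per cell cannot be told apart.

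As deposited, Sycp2 read about 3 times as high without LIF. Mael, Sycp3, Tdrd12 and Mov10l1 read higher by about 1.4 to 1.5 times with no overlap of the groups, and Stk31 read lower. With the arrays brought to a common median the log2 changes of Sycp2, Mael, Sycp3, Tdrd12 and Mov10l1 were 1.43, 0.32, 0.21, 0.29 and 0.17. Overlap was read in the deposited signals only. Sycp1, Asz1 and Dazl overlapped between the groups. In limma 0 of the 9 tested members passed an adjusted p of 0.05, where 0.145% of the tested genes (21) did, 0.0485% higher and 0.0969% lower without LIF. An unadjusted p of 0.05 or less was reached by 3 members, Sycp2, Mael and Sycp3, all higher without LIF, where 7.16% of tested genes reached it in that direction, and by 0 members in the other, where 3.73% did. The groups did not overlap for 5 members that read higher, where 27.3% of tested genes did so, and for 1 that read lower, where 15.2% did. The number of all genes called depended on single arrays, with 39 and 7 called without arrays 1 and 2 with LIF and 303 and 496 without arrays 1 and 2 without LIF, and the members called were 0 in each case. With the array number as a block, although no label says that it pairs the arrays, 1 member passed, Sycp2 (limma adjusted p = 0.030), where 6.75% of tested genes did, 4.13% higher and 2.62% lower. Among single probe sets that block passed 2 of the members', those of Sycp2 and the dimmer of Dazl (limma adjusted p = 0.027 and 0.043), and 5.35% of all tested.

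Among the synaptonemal complex genes Sycp2 differed most. It encodes a protein of the lateral elements that run along the chromosome axes. Its signals were 59.2 and 43.8 under LIF, against 161 and 176 without it. Both arrays without LIF lay well above both with LIF, and the means were 51.5 ± 10.9 and 169 ± 11.1 (SD, n = 2). The log2 change was 1.73 (3.31-fold; SE 0.41; 95% interval 0.75 to 2.70; limma adjusted p = 0.18), and it was 1.44 within number 1 and 2.01 within number 2.

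Sycp3, the partner of Sycp2 in the lateral elements, gave signals of 1093 and 1025 under LIF, against 1451 and 1545 without it. Arrays of a group lay close together and the groups did not overlap. For Sycp3 the log2 change was 0.50 (1.41-fold; SE 0.18; 95% interval 0.06 to 0.94; limma adjusted p = 0.39), 0.41 and 0.59 within the numbers. Sycp1, which forms the transverse filaments that bridge the lateral elements, gave signals of 199.6 and 293 under LIF, against 221 and 534 without it. Only array 2 without LIF stood above both arrays with LIF. Sycp1 had a log2 change of 0.51 with an interval of -0.56 to 1.57 (limma adjusted p = 0.75), 0.15 and 0.87 within the numbers, and -0.13 without array 2 without LIF.

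Among the genome-defence genes Mael and Tdrd12 showed the clearer separation. Mael encodes Maelstrom, a protein of the piRNA pathway. It gave signals of 1195 and 1378 under LIF, against 2275 and 1687 without it. Both arrays without LIF were above both with LIF, with more spread between the arrays without LIF. For Mael the log2 change was 0.61 (1.53-fold; SE 0.22; 95% interval 0.10 to 1.12; limma adjusted p = 0.37), 0.93 and 0.29 within the numbers. Tdrd12, a tudor-domain protein needed to make secondary piRNAs, gave signals of 422 and 435 under LIF, against 534 and 777 without it. The arrays with LIF were almost equal and those without LIF were both higher. Tdrd12 had a log2 change of 0.59 (SE 0.26; 95% interval -0.03 to 1.20; limma adjusted p = 0.48), 0.34 and 0.84 within the numbers.

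Mov10l1, the RNA helicase that handles piRNA precursors, gave signals of 104 and 142 under LIF, against 181 and 157 without it. The groups did not overlap, although array 2 of each group differed by less than the spread within the group with LIF. For Mov10l1 the log2 change was 0.47 (1.38-fold; SE 0.35; limma adjusted p = 0.69), 0.80 within number 1 and 0.14 within number 2. Tdrd1, a tudor-domain protein that binds PIWI proteins, gave signals of 2.2 and 5.3 under LIF, against 11.5 and 5.5 without it. All of these lie below the filter, so no fold is given and Tdrd1 was not tested.

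Asz1, a scaffold protein of germ granules at mitochondria, differed more between arrays of a group than between groups. Its brighter probe set gave signals of 123 and 391 under LIF, against 136 and 604 without it, and its dimmer probe set gave signals of 104 and 332 under LIF, against 103 and 521 without it. On both probe sets the arrays numbered 2 were the high ones in each group. Asz1 had a log2 change of 0.38 with a wide interval of -1.46 to 2.22 (limma adjusted p = 0.90). Within the arrays numbered 1 the log2 changes were 0.14 and -0.03 for the brighter and the dimmer probe set, and within those numbered 2 they were 0.63 and 0.65. The sign for Asz1 turned without array 1 with LIF (-0.45) and without array 2 without LIF (-0.70).

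**Figure D2:**
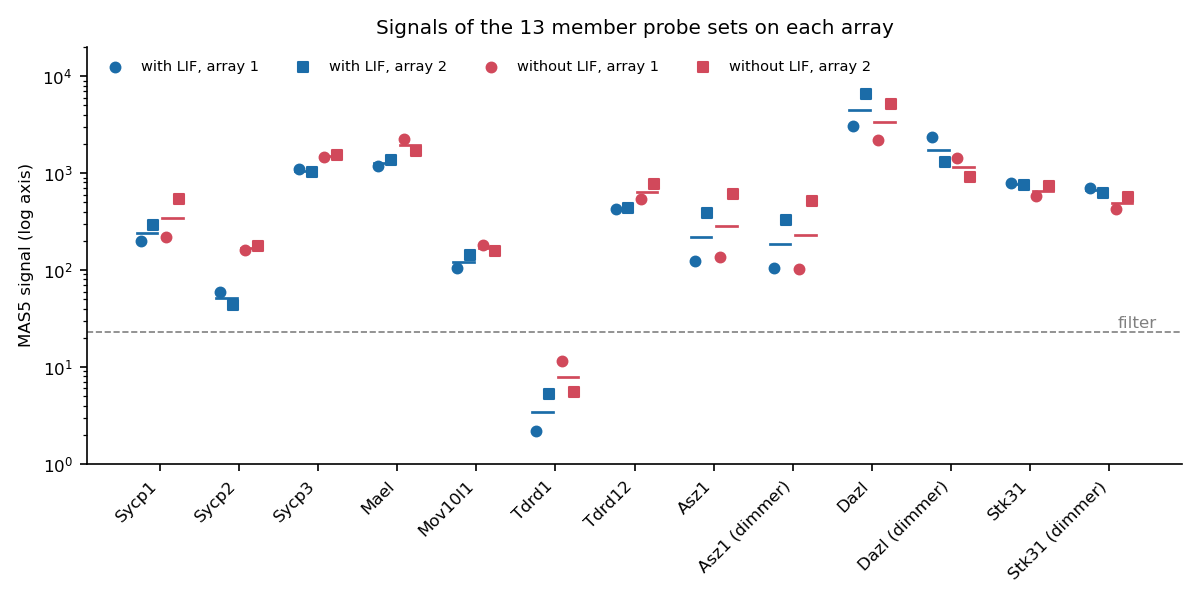
MAS5 signal on a log axis for each of the 13 member probe sets on the 4 arrays. Points are arrays, short bars are the means of log2 signals of the 2 arrays of a group, and the dashed line is the filter at 22.9. Sycp2, Sycp3, Mael, Tdrd12 and Mov10l1 have both arrays without LIF above both with LIF, Stk31 has them below, and Tdrd1 lies under the filter.

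The remaining members, Dazl and Stk31, read lower without LIF. Dazl encodes an RNA-binding protein that controls translation in germ cells. Its brighter probe set gave signals of 3037 and 6476 under LIF, against 2210 and 5138 without it, and its dimmer probe set gave signals of 2332 and 1299 under LIF, against 1425 and 922 without it. The probe sets disagreed on the numbers: the brighter read higher and the dimmer lower on the arrays numbered 2 of each group. Within each number both read lower without LIF, by log2 changes of -0.46 and -0.33 for the brighter and -0.71 and -0.49 for the dimmer. Over all 4 arrays the log2 change was -0.40 for the brighter (SE 0.47; 95% interval -1.50 to 0.71; limma adjusted p = 0.81) and -0.60 for the dimmer. On the brighter it turned to 0.15 without array 2 with LIF and to 0.21 without array 1 without LIF. The dimmer had an adjusted p of 0.75 in the limma fit of 26405 single probe sets, in which 0 passed and 2038 (7.72%) had an unadjusted p of 0.05 or less.

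Stk31, a germ cell protein with a tudor and a kinase domain, gave signals of 796 and 749 under LIF, against 575 and 729.9 without it. Its dimmer probe set gave signals of 702 and 628 under LIF, against 430.1 and 568 without it. On both probe sets the arrays without LIF lay below those with LIF, on array 2 by little. For Stk31 the log2 change was -0.25 (SE 0.22; limma adjusted p = 0.74) on the brighter and -0.43 on the dimmer, whose name carries the suffix that Affymetrix gives to probes that may bind other transcripts.

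**Figure D3:**
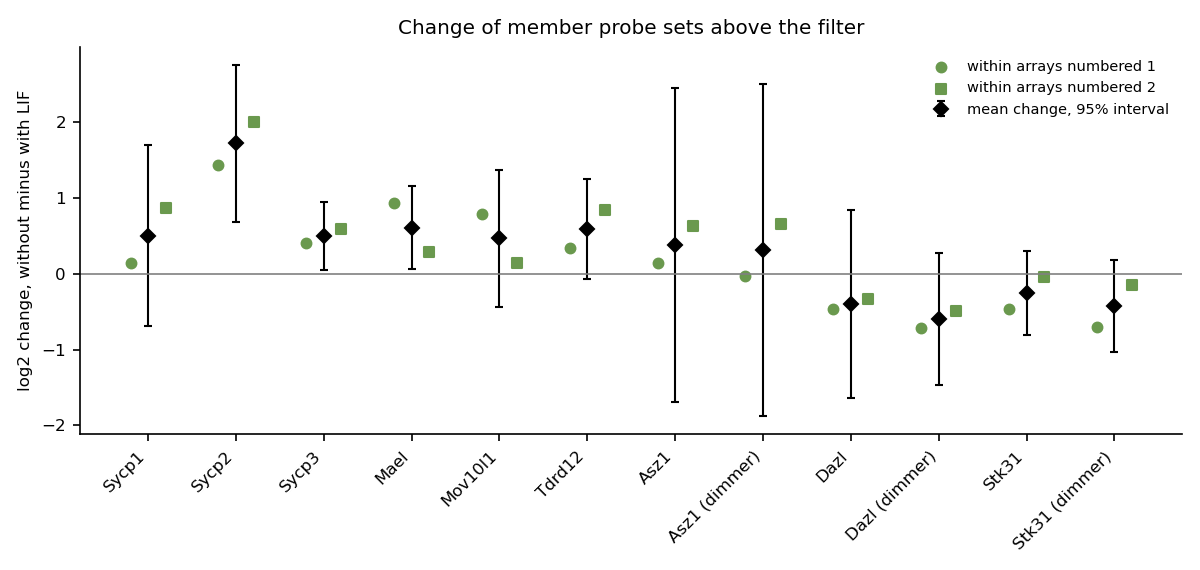
Log2 change without minus with LIF of the member probe sets above the filter. Diamonds are means with 95% intervals of the limma fit over single probe sets, circles and squares the changes within the arrays numbered 1 and 2. The intervals of Sycp2, Sycp3 and Mael lie above 0 before adjustment for the number of probe sets tested, and those of Asz1 are the widest of the members.

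In direction, 7 of the 9 tested members had a log2 change above 0, where 59.4% of tested genes did. The same 7 read higher without LIF within both numbers, where 40.1% of tested genes did, and 2, Dazl and Stk31, read lower within both, where 24.9% did. Those counts hold for the signals as deposited. In these the array median was 69.9 with LIF and 95.5 without it for number 1, and 59.6 and 65.5 for number 2. The median log2 change over all 10 members was 0.50, beside 0.12 over all 18193 genes. Scaling matters here, since a common median for the arrays moved the median of all genes by -0.29 and quantile normalization by -0.11. Relative to the median of all genes, the median of the members was 0.38 higher as deposited and 0.40 higher after quantile normalization. A common median moves every log2 change by the same -0.29, so under it the difference of 0.38 could not change and tells nothing more. No member changed direction under either scaling.

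The arrays numbered 2 were higher than those numbered 1 in both groups for 4 of the tested members, Asz1, Dazl, Sycp1 and Tdrd12, where 32% of tested genes were, and lower in both groups for 0, where 31.7% were. For Asz1 that log2 difference was 1.66 with LIF and 2.15 without it, and for Sycp1 it was 0.55 and 1.28. For Tdrd12 it was only 0.04 with LIF and 0.54 without it. Dazl counts here by its brighter probe set, while its dimmer one was lower on the arrays numbered 2 (-0.84 and -0.63). Of markers of primitive endoderm, the extraembryonic cell type that can arise in ES cultures, 8 of 8 were higher on the arrays numbered 2 in both groups. Their summed signal on arrays 1 and 2 was 2603 and 6612 in the LIF group, against 3351 and 13733 in the other. Other lists split by number too. Of 8 ES cell markers 5 were higher and 0 lower on the arrays numbered 2 in both groups. Of 6 tested fibroblast markers 0 were higher and 4 lower. The ratio of the 3′ to the 5′ beta-actin control also split by number. It was 1.32 (LIF) and 1.44 (no LIF) on arrays numbered 1, against 1.83 and 1.77 on those numbered 2. The part of any of these cell types, and of what this ratio reflects, in the values of Asz1, Sycp1 and Dazl was not tested.

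**Figure D4:**
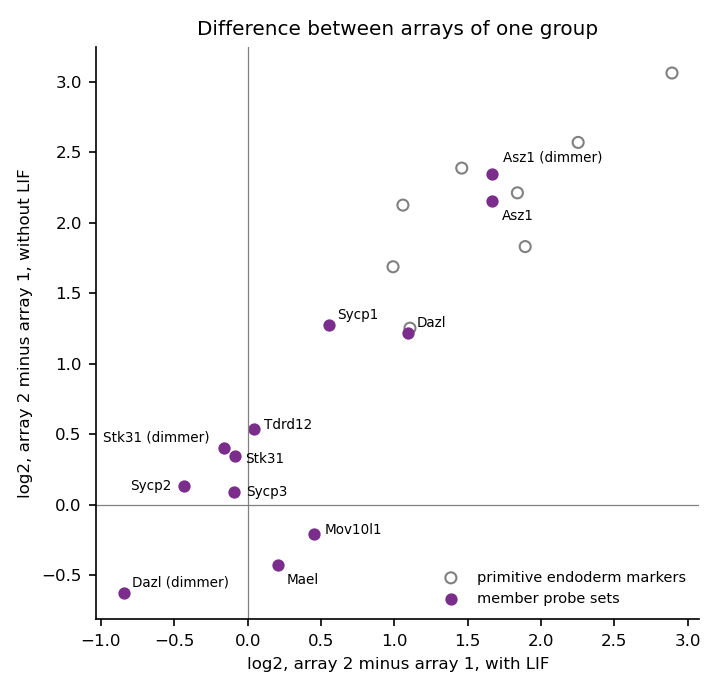
Log2 difference between arrays 2 and 1 of a group, with LIF on the horizontal and without LIF on the vertical axis, for the member probe sets above the filter (filled) and 8 primitive endoderm markers (open). Both probe sets of Asz1 lie among the primitive endoderm markers, and the probe sets of Dazl lie in opposite corners.

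Other genes of the same pathways read higher in some cases and lower in others. Leaving out either array with LIF brought 0 of the genes named from these lists newly past the threshold, while leaving out an array without LIF did so for several, given below with the value on leaving out the other. Of 17 tested genes of the piRNA pathway 0 passed limma (1 at an unadjusted p of 0.05), 12 read higher and 5 lower, and the median log2 change was 0.19, which turned to -0.11 with a common median. Those with the smallest p were Exd1, a partner in piRNA biogenesis (0.79, limma adjusted p = 0.43), Morc1, a repressor of transposons in male germ cells (-0.52, limma adjusted p = 0.54), and Tex15, which acts in piRNA-directed silencing (0.62, limma adjusted p = 0.59). Morc1 passed without array 2 without LIF (-0.92, limma adjusted p = 0.043) but was -0.13 without array 1 without LIF (limma adjusted p = 0.90). Tex15 ranged from 0.20 to 1.05 with each array left out.

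Of 21 tested genes of meiotic chromosomes and recombination 0 passed (3 at an unadjusted p of 0.05 in limma), 12 read higher and 9 lower, and the median was 0.02, which turned to -0.10 after quantile normalization and -0.27 with a common median. Rec8, the meiotic cohesin subunit, stood out within the list by its p. Its signals were 325 and 352 under LIF, against 961 and 743 without it, so that the groups lay far apart. Rec8 had a log2 change of 1.32 (2.50-fold; SE 0.24; limma adjusted p = 0.098), 1.56 and 1.08 within the numbers, and it passed without array 2 without LIF (limma adjusted p = 0.016) and not without array 1 (0.092). Meioc, a regulator of meiotic entry, had a log2 change of 0.83 (limma adjusted p = 0.22). The recombinase Dmc1 had a log2 change of 1.16 (limma adjusted p = 0.41) with 2.14 within number 1 and 0.18 within number 2. It passed without array 2 without LIF (1.67, limma adjusted p = 0.035) but was 0.66 without array 1 without LIF, 0.69 without array 1 with LIF and 0.60 with the mean of probe sets (limma adjusted p = 0.62, 0.84 and 0.74).

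Genes of PRC1.6 and of the DNA and H3K9 methylation machinery differed among themselves. The second list is not one of silencers alone, since it also holds Tet1, Tet2, Tet3 and Prdm14. Tet1 and Prdm14 are the 2 genes of that list that read lower at an unadjusted p of 0.05 in limma. Of 13 tested PRC1.6 subunits 0 passed (1 at an unadjusted p of 0.05 in limma), with 5 reading higher and 8 lower and a median log2 change of -0.14, which turned to 0.10 with the mean of probe sets. E2f6 had a log2 change of 0.31, Mga of -0.06, Pcgf6 of -0.16, Yaf2 of 0.55, Max of -0.58 and Hdac2 of -0.32 (limma adjusted p = 0.72, 0.94, 0.79, 0.38, 0.53 and 0.59). The sign for Mga turned on leaving out array 1 with LIF (0.05), and likewise array 2 without LIF (0.13). Of 12 tested genes of DNA and H3K9 methylation 0 passed (2 higher and 2 lower at an unadjusted p of 0.05 in limma), with 7 reading higher and 5 lower and a median of 0.05, which turned to -0.25 with a common median and -0.12 with the mean of probe sets. The maintenance enzyme Dnmt1 had a log2 change of 0.01 (SE 0.20; limma adjusted p = 0.99), which was -0.28 with a common median. The de novo enzymes Dnmt3b and Dnmt3a had log2 changes of 1.20 and 1.09 (limma adjusted p = 0.065 and 0.21), and their cofactor Dnmt3l of 0.51 (limma adjusted p = 0.53). With a common median the log2 changes of Dnmt3b and Dnmt3a were 0.91 and 0.79 (limma adjusted p = 0.81 and 0.86). Dnmt3b gave signals of 7975 and 6360 under LIF, against 16192 and 16611 without it. It passed when array 1 or array 2 without LIF was left out (limma adjusted p = 0.0077 and 0.0062) and not without array 1 or array 2 with LIF (0.16 and 0.43). Dnmt3a passed without array 1 without LIF (limma adjusted p = 0.016) and not without array 2 (0.16). Prdm14, a repressor in naive ES cells and germ cells, had a log2 change of -2.02 (limma adjusted p = 0.054). It passed with a common median and with the pseudocount (limma adjusted p = 0.0039 and 0.047). It did not pass without the filter, after quantile normalization or without the trend (limma adjusted p = 0.065, 0.099 and 0.29). Nor did it pass with the mean of probe sets or plain probe sets alone (limma adjusted p = 0.090 and 0.063). With each array left out its log2 change ranged from -2.22 to -1.81.

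Markers of primordial germ cells mostly read lower without LIF. Of 7 tested markers 0 rose and 1 fell, where 0.0485% and 0.0969% of all tested genes did. Of the 7, 6 read lower, while 59.4% of tested genes had a log2 change above 0. The median log2 change was -0.28. Only Tfap2c, Kit and Ifitm3 read lower with no overlap of the groups, as 15.2% of tested genes did. Prdm1, Dppa3, Dnd1 and Alpl overlapped. Nanos2 and Nanos3, also on the list, were not measured. The gene that fell was Tfap2c, a transcription factor of primordial germ cells and trophoblast, with signals of 2667 and 3785 with LIF and 707 and 713 without LIF. Its log2 change was -2.16 (4.47-fold; SE 0.22; limma adjusted p = 0.027), and it did not pass without array 2 with LIF (limma adjusted p = 0.15), after quantile normalization (0.055) or without the trend in limma (0.29). The receptor Kit and the membrane protein Ifitm3 had log2 changes of -1.10 and -1.00 (limma adjusted p = 0.13 and 0.15), and each passed without array 2 without LIF (limma adjusted p = 0.023 and 0.0071) and not without array 1 (0.099 and 0.13).

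**Figure D5:**
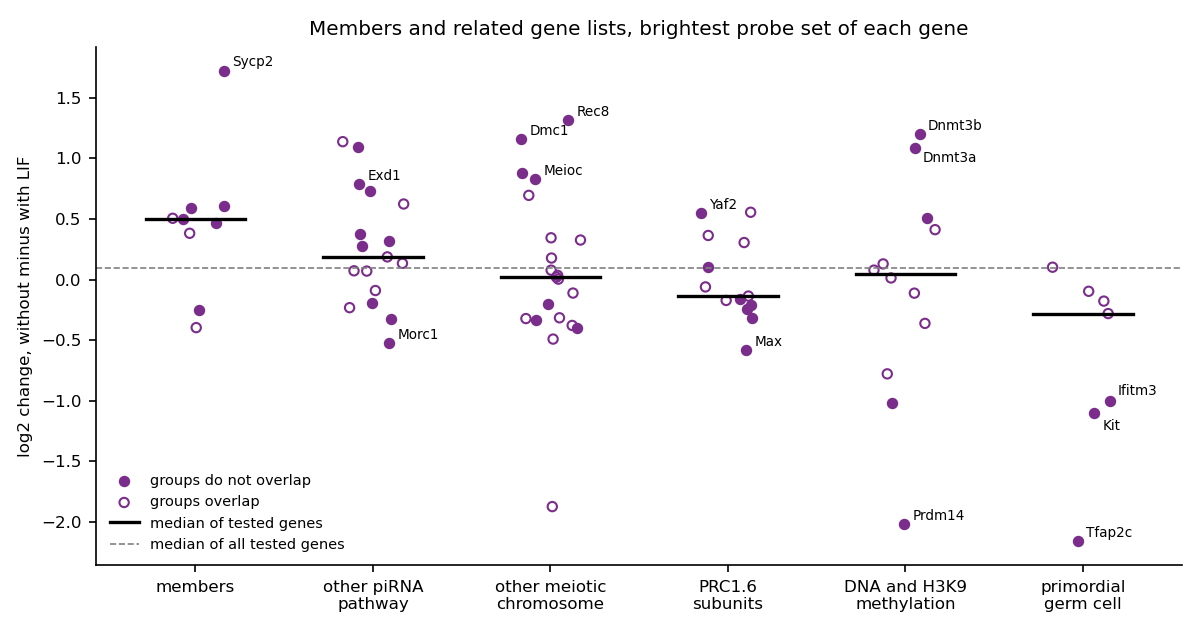
Log2 change without minus with LIF of the tested members and of the tested genes of 5 related lists, each point the brightest probe set of a gene. Filled points have groups that do not overlap, black bars are list medians, and the dashed line is the median of all tested genes (0.09). The median of the members is 0.50 and that of the primordial germ cell markers -0.28.

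Markers of mature germ cells and of gonadal cells had signals of at most 240.2 on every array. Of 14 spermatid and oocyte markers 6 lay below the filter. Of the 8 tested 0 passed (1 at an unadjusted p of 0.05 in limma), 5 read higher and 3 (Zp3, Nobox and Acrv1) lower, and their median of 0.58 turned to -0.08 without array 2 with LIF. Smallest in p were those of Spaca1, an acrosome protein, and of the oocyte genes Gdf9 and Figla (log2 changes 1.82, 0.48 and 0.68; limma adjusted p = 0.39, 0.74 and 0.75), and Figla was 0.08 without array 1 with LIF. Of 7 gonadal somatic markers with a probe set 3 lay below the filter, and of the 4 tested 0 passed (1 at an unadjusted p of 0.05 in limma); Star, Inha and Sox9 had log2 changes of 1.00, 0.49 and 0.36 (limma adjusted p = 0.42, 0.83 and 0.90). Their summed signal was 307 and 312 with LIF and 527 and 347 without LIF, and that of the spermatid and oocyte markers 678 and 571 with LIF and 916 and 825 without it. Both sums were higher in the group in which Sycp2 was higher. The summed signal of the fibroblast markers was 632.5 and 323 with LIF and 900 and 473 without it, so it was higher within each number too. MAS5 scaling does not align dim signals. After quantile normalization the log2 change of Sycp2 was 1.45, and with a common median it was 1.43. Medians of the tested gonadal somatic, spermatid and oocyte, and fibroblast markers were 0.43, 0.58 and 0.18 as deposited. After quantile normalization they were 0.07, 0.27 and -0.11. The part of these markers and of scaling in the difference of Sycp2 was not tested.

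ES cell markers were above the filter in all 8 cases, with a summed signal of 86155 and 101640 with LIF and 47966 and 65469 without it. Of these 0 passed (1 higher and 4 lower at an unadjusted p of 0.05 in limma), with a median log2 change of -0.39. Zfp42, Nanog and Lin28a had log2 changes of -1.38, -1.41 and 0.87 (limma adjusted p = 0.084, 0.12 and 0.12). Each passed without array 1 without LIF (limma adjusted p = 0.0099, 0.026 and 0.039), and Zfp42 and Nanog also without array 2 without LIF (limma adjusted p = 2.4e-04 and 6.5e-04), while Lin28a did not (0.098). Pou5f1, which encodes Oct4, had a log2 change of 0.02 (limma adjusted p = 0.99), which was -0.27 with a common median. Of 8 primitive endoderm markers 0 passed (0 at an unadjusted p of 0.05 in limma), 6 read higher and 2, Lama1 and Pdgfra, read lower. Col4a1, Dab2 and Sox7 had log2 changes of 1.05, 1.27 and 0.83 (limma adjusted p = 0.55, 0.60 and 0.76). Col4a1 and Dab2 passed without array 1 without LIF (log2 changes 1.90 and 2.46; limma adjusted p = 0.0059 and 0.0052), but were 0.21 and 0.07 without array 2 without LIF (limma adjusted p = 0.80 and 0.96). The median of the list, 0.47, turned to -0.45 without array 1 with LIF and to -0.58 without array 2 without LIF, and Sox7 turned to -0.11 without array 1 with LIF. Of 6 tested fibroblast markers 0 passed (1 at an unadjusted p of 0.05 in limma), with Dcn, Col1a2 and Thy1 at 1.43, 0.46 and 0.21 (limma adjusted p = 0.24, 0.84 and 0.90), and 2, Col1a1 and Postn, read lower. With the mean of its probe sets Dcn was 0.04 (limma adjusted p = 0.99), so its value rests on the brightest of them. Thy1 was -0.086 with a common median and -0.067 after quantile normalization.

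The tested genes whose centred log2 signals over the 4 arrays lay closest to those of Sycp2 were Man2b2, Sema6a and Dennd2d, at Euclidean distances of 0.13, 0.19 and 0.21. Their log2 changes were 1.83, 1.64 and 1.55 (limma adjusted p = 0.16, 0.27 and 0.29). The likeness covers 4 arrays only.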

How the data were processed

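RNA of 4 arrays was compared, 2 with and 2 without LIF. The deposited values are signal intensities on a linear scale, made by the authors with MAS5, per the submitters' processing notes. Its version is unknown, as none was stated in those notes. MAS5 summarises each probe set within an array and scales the array as a whole, and the trimmed mean (lowest and highest 2% left out) was 500.003 to 500.004 on each array. This does not align dim signals. Log2 was taken after raising the single value at 0 to 0.1. Of 45101 probe sets, 64 controls, 932 with several symbols and 9160 with none were left out. Entrez identifiers of 34741 of 34945 probe sets matched RefSeq (GRCm38.p6), and 0 symbols changed. Genes above the 30th percentile of mean log2 signal went into limma 3.58.1 under R 4.3.3 (lmFit, eBayes with trend, 2 residual degrees of freedom, two-sided, Benjamini-Hochberg over all tested genes, threshold 0.05). The procedure was checked on simulated data beforehand. With 4 arrays their number limits the precision.

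The members and lists were chosen with earlier results of these data known. Named genes are all members, the 3 of each list with the smallest p, any that pass, and Dnmt1, Dnmt3a, Dnmt3b, Dnmt3l, E2f6, Mga, Pcgf6, Pou5f1 and Nanog. Alternatives were no filter, a pseudocount of 14.3, quantile normalization, a common median, no trend, the mean of probe sets per gene, plain probe sets alone, blocking on the replicate number and leaving out each array. Figures used matplotlib 3.10.9.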

Additional observations from a re-analysis of the deposited data

How the results depend on the processing

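For the 9 tested members, 102 of 108 values under alternatives kept direction and side of the threshold, 5 turned and 1, Sycp2 with the replicate block, newly passed. The numbers pair the arrays in no label, and with 2 pairs the check is only that the differences between arrays 2 and 1 correlated at r = 0.29 between the groups over tested genes. With the replicate block 975 genes passed (6.75%), among them 1 member, Sycp2 (limma adjusted p = 0.030, against 0.15 to 0.65 with each array left out), and 2 member probe sets passed, where 5.35% of all did. Of the lists it passed 2 meiotic genes (Rec8 and Meioc, higher), 2 higher and 3 lower of the methylation machinery (Dnmt3a and Dnmt3b; Prdm14, Tet1 and Tet2), 3 primordial germ cell markers (lower; Tfap2c, Kit and Ifitm3), 1 higher and 4 lower ES markers (Lin28a; Nanog, Zfp42, Tdgf1 and Sox2), 2 primitive endoderm markers (higher; Col4a1 and Dab2) and 0 of the others. The number of genes called was 51 with the pseudocount, 10 after quantile normalization, 131 with a common median, 0 without the trend in limma, where the cause was not tested, and 12 with the mean of probe sets, against 21. It ranged from 7 to 496 with an array left out. The median of the members ranged from 0.37 to 0.70 with an array left out.

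With each array left out in turn the log2 changes ranged from -1.00 to 0.21 for Dazl, -0.13 to 1.14 for Sycp1, -0.70 to 1.46 for Asz1, -0.035 to 1.02 for Inha, -0.027 to 0.75 for Sox9, -0.11 to 1.78 for Sox7, -0.31 to 1.24 for Col1a2, -0.042 to 0.46 for Thy1, -0.18 to 0.21 for Dnmt1, -0.25 to 0.13 for Mga and -0.26 to 0.30 for Pou5f1. Dazl turned without array 2 with LIF (0.15) and without array 1 without LIF (0.21), Sycp1 without array 2 without LIF (-0.13), and Asz1 without array 1 with LIF (-0.45) and without array 2 without LIF (-0.70). With the mean of probe sets, Hdac2 was 0.15, Sox9 -0.97, Col1a2 -0.041, Dnmt1 -0.16 and Mga 0.16. After quantile normalization Sox9 was -0.017 and Thy1 -0.067, and with a common median Thy1 was -0.086, Dnmt1 -0.28 and Pou5f1 -0.27. In these cases the sign was opposite to that over 4 arrays as deposited, and the cause was not tested. Signals below the filter leave Tdrd1 untested.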
